A study of Mus musculus with 11 samples.

Results

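The genes described here are 9 interferon-inducible GTPases (Gbp2, Gbp3, Gbp4, Gbp5, Gbp6, Gbp7, Igtp, Irgm1 and Iigp1) and the transcription factor Irf1, 10 of the 26921 genes in the count tables. They were read in single-cell RNA-seq of C57BL/6 mouse brain cortex from which myelin had been depleted, in 11 libraries of cells pooled from several mice. Juvenile mice were at postnatal day 10 (4 libraries of 6 pooled mice each), adult mice at 7 to 11 weeks (3 libraries of 6 mice) and aged mice at 18 months (2 libraries of 3 mice), all untreated. By the study's methods the mice were female unless it says otherwise. The remaining 2 libraries, of 3 pooled female mice each at 7 to 11 weeks, came from the peak of experimental autoimmune encephalomyelitis (EAE). This T cell-driven model of multiple sclerosis is induced with a myelin oligodendrocyte glycoprotein peptide in complete Freund's adjuvant together with pertussis toxin. The adults received neither adjuvant nor toxin, so the effects of these agents and of the disease cannot be told apart.

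Interferon-gamma, a cytokine made mainly by activated T cells and NK cells, binds a receptor built from Ifngr1 and Ifngr2 and acts through gamma-activated sequences (GAS) near its target genes. Irf1 is an early target and encodes a transcription factor that binds interferon-stimulated response elements (ISRE) of later genes. Guanylate-binding proteins (Gbp2 to Gbp7) assemble on the membranes of vacuoles and microbes inside infected cells. The immunity-related GTPases fall into regulators, which include Igtp and Irgm1 and protect the cell's own membranes, and effectors such as Iigp1, which break open the vacuoles of intracellular parasites.

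Several of the genes are neighbours. In GENCODE M21 on GRCm38, Gbp5 (chr3:142493978-142522344), Gbp7 (chr3:142530342-142550149), Gbp3 (chr3:142560026-142573209) and Gbp2 (chr3:142620602-142638008) follow each other on the plus strand. Gbp4 (chr5:105115767-105139586) and Gbp6 (chr5:105270702-105293698) lie on the minus strand of chromosome 5. On chromosome 11 are Irgm1 (chr11:48861968-48871683, minus strand), Irf1 (chr11:53770014-53778374, plus) and Igtp (chr11:58199556-58207591, plus), while Iigp1 lies apart from the rest. Reads of 98 bases near the 3′ end cannot place Gbp6 securely: 92.4% of such windows in the last 400 bases of its transcript also occur in Gbp10 or Gm43302, against 6.6% for Gbp4, so the counts of Gbp6 are uncertain.

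The promoter table used here, from RefSeq on GRCm38.p6, holds windows from 250 bases before to 50 bases after a gene's start for 7 of the 10 genes, and names no window for Gbp4, Gbp6 or Iigp1. Each window was searched on both strands for the ISRE core GAAANNGAAA and for the GAS TTCNNNGAA. The ISRE core occurs in 3.44% of all 32851 promoter windows (1079 of 27025 genes) and was found in 6 genes (Gbp2, Gbp3, Gbp5, Gbp7, Igtp and Irgm1). The GAS occurs in 8.3% of windows (2582 of 27025 genes) and was found in 4 (Gbp5, Gbp7, Igtp and Irf1). The stretches that hold the matches are shown because these 7 genes are read together below, 5′ to 3′ on the strand of the gene, with the matched bases in capitals and overlapping matches run together.
Gbp2, chr3:142620594-142620623, plus strand: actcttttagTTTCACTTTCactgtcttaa
Gbp3, chr3:142559979-142560025, plus strand: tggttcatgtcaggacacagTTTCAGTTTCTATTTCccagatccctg
Gbp5, chr3:142496684-142496899, plus strand: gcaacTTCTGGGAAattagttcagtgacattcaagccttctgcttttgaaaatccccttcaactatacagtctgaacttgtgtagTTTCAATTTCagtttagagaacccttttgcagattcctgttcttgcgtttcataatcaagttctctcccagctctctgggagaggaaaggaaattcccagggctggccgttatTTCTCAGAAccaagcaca
Gbp7, chr3:142530210-142530312, plus strand: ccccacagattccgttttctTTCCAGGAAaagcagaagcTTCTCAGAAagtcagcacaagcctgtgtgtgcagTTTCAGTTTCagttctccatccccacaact
Igtp, chr11:58199491-58199551, plus strand: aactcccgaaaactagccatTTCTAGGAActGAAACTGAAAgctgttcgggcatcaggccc
Irgm1, chr11:48871428-48871457, minus strand: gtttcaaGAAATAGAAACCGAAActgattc
Irf1, chr11:53769904-53769952, plus strand: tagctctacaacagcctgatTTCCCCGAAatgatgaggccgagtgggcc
Irf1, the factor that binds ISREs, held only a GAS in its windows, Gbp2, Gbp3 and Irgm1 held only ISRE cores, and Gbp5, Gbp7 and Igtp held both. Gbp3 and Irf1 each had a second window, without a match. The matches of Gbp2 and Irgm1 lie in exons of GENCODE, and the Gbp5 window lies inside the GENCODE gene, past its start. A match of letters is a description and not a site shown to be bound.

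After filtering, 50625 of 54646 barcodes remained. Before filtering the libraries held 15755504 to 34326349 UMIs (unique molecules) each. Cells were clustered without the 10 genes and their pathway lists among the clustering genes, and clusters were named from marker genes, leaving 305 cells (0.602%) without a name. Endothelial cells (ECs), microglia, mural cells, choroid plexus (CP) cells and perivascular macrophages (PVMs) were found in all 11 libraries. Levels are given in CPM, the gene's UMIs in the summed cells of a type in a library scaled to a common total. Adult 2 and Adult 3 differed by close to sampling noise (chi-square per degree of freedom 1.1 in ECs and 0.99 in microglia) and were counted as 1 sample, whereas the 2 EAE libraries differed by slightly more (1.44 and 1.35), so every test rests on 2 adult, 2 EAE, 2 aged and 4 juvenile samples, with the adults shared by all comparisons. The juvenile libraries formed 2 pairs, Juvenile 1 with 2 and Juvenile 3 with 4 (1.24 and 1.67 in ECs within pairs, 7.77 to 9.50 between them), so the 4 juvenile samples are not equally independent. With each pair and the 2 EAE and 2 aged libraries summed, the calls given below for juveniles went from 10 to 9 in ECs (Irf1 was lost), from 3 to 2 in microglia, from 4 to 2 in PVMs and from 3 to 0 in mural cells, and stayed at 9 in CP cells. Nothing in the labels says that the 2 EAE libraries came from separate groups of mice, so p-values measure the spread between libraries, which may be technical. Adult 1 stood apart from the other adults and held the most free CP RNA, with CP marker genes summing to 50800 CPM in its ECs against 20200 in the lowest adult library and 7630 to 7690 in EAE.

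ECs carried these transcripts at a substantial level before any immunization, and in EAE 9 of the 10 genes rose, by 1.6-fold (Gbp7) to 6.97-fold (Gbp4). Of all genes tested in ECs, 15.8% were called higher. The median log2 change of the 10 genes was 1.36, against 0.01 over all genes tested in ECs. Gbp6 was the exception and did not pass the test.

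**Figure D1:**
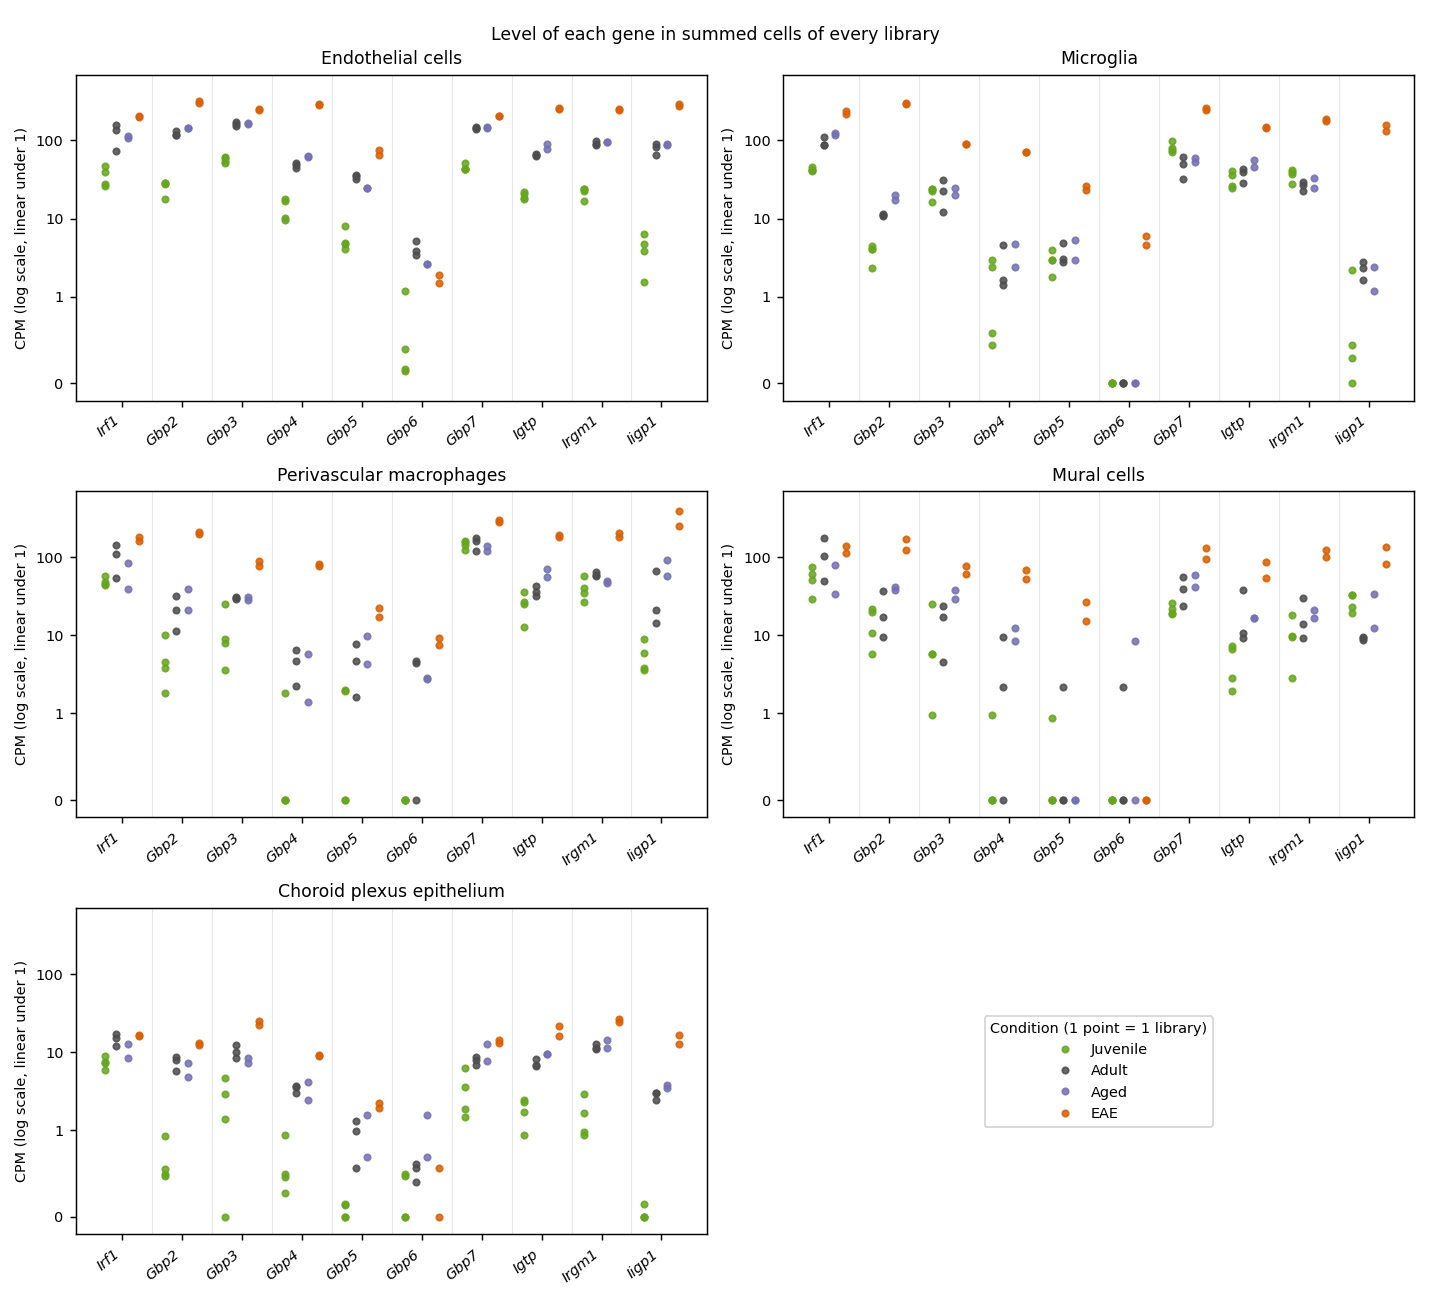
Level of each of the 10 genes in every library, in CPM of the summed cells of ECs, microglia, mural cells, CP cells and PVMs, on an axis that is linear near 0 and logarithmic above, with 1 point per library coloured by condition. In ECs the 2 EAE libraries lie above all adult libraries for 9 genes (as for 19.7% of all genes with at least 10 UMIs), and Gbp6 lies below them.

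Gbp4 stood at 44.2, 48.1 and 51.0 CPM in the 3 adult EC libraries and at 283.6 and 297.7 CPM in the 2 EAE libraries, a log2 change of 2.80 ± 0.20 (SE, adjusted p = 4.1e-06, edgeR quasi-likelihood test with Benjamini-Hochberg adjustment, as for all adjusted p below). For Gbp2, adult ECs held 117, 132 and 119 CPM and EAE ECs 298 and 318 CPM, a log2 change of 1.53 ± 0.16 (adjusted p = 2.6e-05). The groups were far apart for both genes, and the libraries within each group close together. Gbp5, a guanylate-binding protein that promotes inflammasome assembly, was at 32.5 to 35.8 CPM in adults and 65.0 and 74.7 CPM in EAE (log2 change 1.19 ± 0.16, adjusted p = 0.00024). Gbp3 changed less, from 155, 175 and 163 CPM to 247 and 250.2 CPM (log2 change 0.80 ± 0.11, adjusted p = 0.00021). The smallest rise was that of Gbp7, from 149.9, 142 and 145 CPM to 206 and 207 CPM (log2 change 0.68 ± 0.11, adjusted p = 0.00067), still with no overlap between the groups. Gbp6 was scarce, at 3.45 to 5.19 CPM in adults and 1.88 and 1.47 CPM in EAE (log2 change -1.15 ± 0.49, adjusted p = 0.1).

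Among the immunity-related GTPases, Igtp was at 65.0, 67.4 and 63.9 CPM in adult ECs and 249.9 and 262 CPM in EAE ECs, a log2 change of 2.15 ± 0.12 with the lowest adjusted p of the 10 genes (2.1e-07). Irgm1 went from 87.9, 98.7 and 89.3 CPM to 248 and 254 CPM (log2 change 1.64 ± 0.13, adjusted p = 4e-06). The effector Iigp1 went from 64.7, 91.0 and 81.6 CPM to 295 and 277 CPM (log2 change 2.08 ± 0.25, adjusted p = 0.0003). All 3 genes were thus at more than 240 CPM in each EAE library and under 100 CPM in each adult library. Irf1 was less even among the adults, at 73.5, 138 and 156 CPM, against 208 and 202 CPM in EAE. Its log2 change of 1.04 ± 0.31 passed the test (adjusted p = 0.04), but the call was lost when Adult 1, Adult 2, EAE 1 or EAE 2 was left out, and without Adult 1 the log2 change was 0.66. Here and in the other cell types, leaving out Adult 1, EAE 1 or EAE 2 leaves 1 sample in that group, which is then assumed to vary like the other groups.

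Markers of blood-borne cells were also higher in EAE than in adult ECs. Macrophage markers summed to 497 to 609 CPM in adult ECs and 1060 CPM in EAE ECs, 32.1 to 49.7% and 19.0 to 20.2% of their level in macrophages of the same libraries. In CP cells they were far lower, at 37.7 to 47.8 CPM in adults and 75.2 to 97.5 CPM in EAE. Whether ECs express genes of this list themselves was not tested, so in ECs it is no sure gauge of macrophage RNA. Neutrophil markers went from 33.9 to 44.2 CPM to 189 to 207 CPM, and those of T and NK cells from 4.23 to 11.5 CPM to 25.6 to 29.0 CPM. Juvenile ECs held macrophage markers at 943 to 996 CPM, and aged ECs held neutrophil markers at 231 and 281 CPM. Neutrophils themselves held the 10 genes together at a mean of 160 CPM in aged libraries and 1130 CPM in EAE. In EAE, both EC libraries were above both macrophage libraries for 8 of the 10 genes, as were 60.4% of all genes with at least 10 UMIs, and below them for Gbp2 and Gbp6. The part of RNA from these cells in the EC values was not tested.

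EC subclusters named from arterial, capillary and venous marker genes were not alike (a description with no test, since the subclusters were formed on these cells). In EAE, Gbp4 reached 612 to 635 CPM in arterial-like ECs, 296 to 297 CPM in capillary-like ECs and 249 to 317 CPM in venous-like ECs. The same order at the top held for Igtp, with 516 to 606 CPM in arterial-like against 262 to 264 CPM in capillary-like ECs, and for Gbp3, with 432 to 571 against 258 to 259 CPM. In adults the arterial-like ECs were the lowest for Gbp3 (44.7 to 110.0 CPM against 162 to 181 CPM in capillary-like ECs) and for Gbp7 (29.8 to 98.6 against 146 to 160 CPM), and for Gbp7 they were the highest in EAE (323 to 340 against 213 to 214 CPM). Arterial-like ECs numbered 235 in adults, 14 of them from Adult 1, and 135 in EAE.

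Irf1 had another order. The venous-like subcluster had Darc, Serpina3n, Lrg1, Lcn2, Sele and Icam1 among its leading genes. The study describes a minor venous subpopulation marked by Icam1 and Irf1, among others, and whether these are the same cells was not tested. Venous-like ECs of the adult libraries held 145 (Adult 1, 17 cells), 529 and 650 CPM. Adult capillary-like ECs held 74.5 to 101 CPM and arterial-like ECs 89.4 to 176 CPM. In EAE the venous-like ECs held 428 and 410 CPM, against 165 to 174 CPM in capillary-like and 196 to 220 CPM in arterial-like ECs. Irf1 in venous-like ECs was therefore not higher in EAE than in Adult 2 and Adult 3, while in capillary-like ECs each EAE library was above each adult library. In venous-like ECs Gbp3 (113 to 188 CPM in adults, 168 to 208 CPM in EAE) and Gbp7 (137 to 169 and 154 to 171 CPM) overlapped too, as did the scarce Gbp6. Gbp2, Gbp4, Gbp5, Igtp, Irgm1 and Iigp1 were higher there in each EAE library than in each adult library. How often other genes in venous-like ECs were so placed was not tested. The makeup of the EC sums also differed. Subclusters left without a name had Hbb-bs, P2ry12 or Folr1 among their leading genes. They held 418 ECs of Adult 1, 117 of Adult 2, 167 of Adult 3, 677 of EAE 1 and 586 of EAE 2. The other ECs of Adult 1 were 14 arterial-like, 407 capillary-like and 17 venous-like cells. Venous-like ECs were 263 cells in adults and 517 in EAE, and 1 of the 5 capillary-like subclusters, led by Angpt2, Tubb6 and Plaur, held 41 adult and 1822 EAE cells. In each of the other 4 capillary-like subclusters both EAE libraries were above all adult libraries for 9 of the 10 genes, all but Gbp6. Of all genes with at least 10 UMIs in the cells compared, 16.1 to 17.8% were so placed in a single one of these subclusters and 6.08% in all 4. In the subcluster with Car4, Slc16a1 and Tfrc among its leading genes (1115 adult and 808 EAE cells), for example, Gbp4 was at 39.5 to 43.1 CPM in adults and 198 and 181 CPM in EAE, and Irf1 at 71.6 to 96.4 CPM against 139 and 120 CPM.

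**Figure D2:**
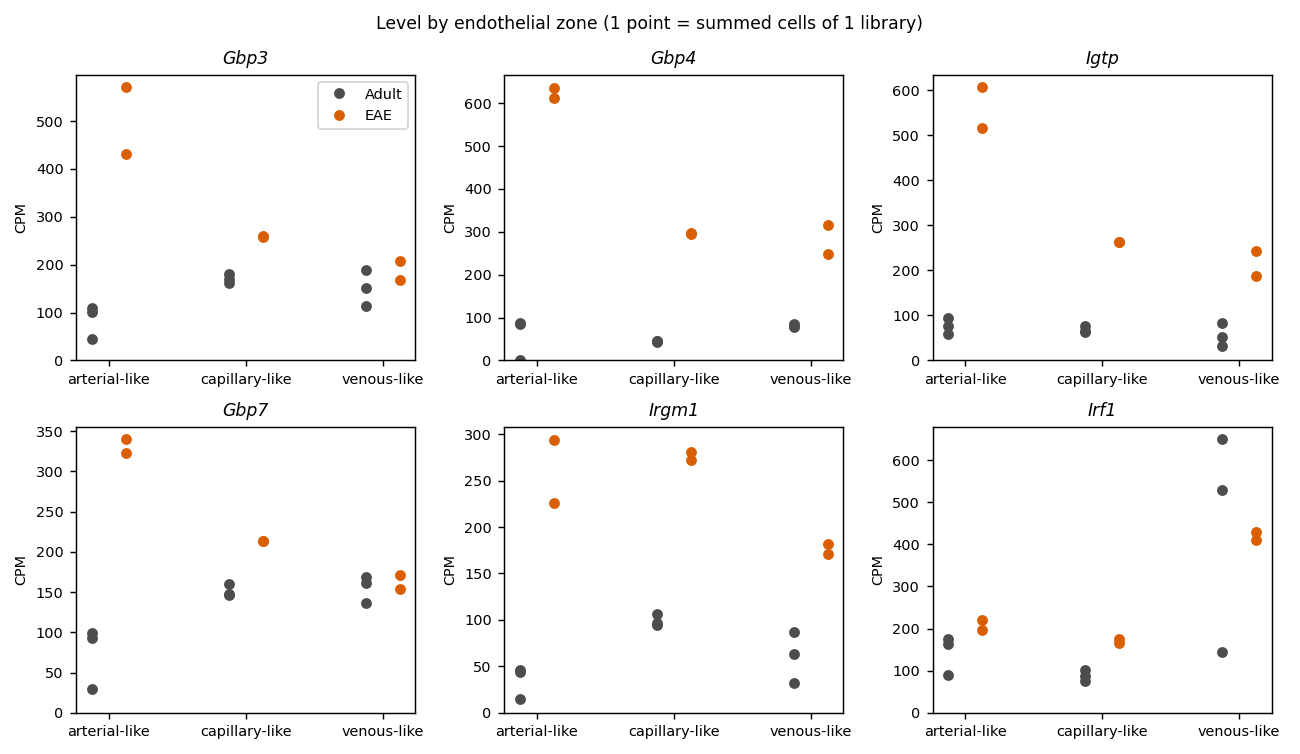
Level (CPM, linear axis) of Gbp3, Gbp4, Igtp, Gbp7, Irgm1 and Irf1 in arterial-like, capillary-like and venous-like ECs of each adult and EAE library, 1 point per library. In EAE the arterial-like points are highest for Gbp3, Gbp4, Igtp and Gbp7, whereas Irf1 is highest in the venous-like ECs within each library. Across adult libraries its points overlap, since venous-like Adult 1 (145 CPM) lies under arterial-like Adult 2 (176 CPM).

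In juvenile ECs all 10 genes were lower than in adults, where 22.4% of all genes tested in ECs were called lower. Iigp1 was at 1.54 to 6.33 CPM over the 4 juvenile libraries, a log2 difference from adults of -4.21 ± 0.27 (adjusted p = 2.1e-06). Gbp2 was at 18.0 to 28.3 CPM (log2 difference -2.17), Gbp5 at 4.06 to 8.11 CPM (-2.63), Irgm1 at 16.6 to 23.6 CPM (-2.0) and Irf1 at 26.3 to 46.5 CPM (-1.63). The smallest difference was that of Gbp3, at 51.6 to 61.1 CPM (log2 difference -1.44 ± 0.09, adjusted p = 2.2e-07). No juvenile library overlapped an adult library in ECs for any of the 10 genes, where the juveniles lay below the adults without overlap for 25.5% of all genes with at least 10 UMIs, and all 10 calls held in each fit that left out 1 library.

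Aged ECs were close to adult ones. None of the 10 genes was called with edgeR, or with DESeq2, where 5.52% of all genes tested in ECs were called in either direction, and 2 genes (Gbp5 and Igtp) had an unadjusted p under 0.05. Igtp was at 90.7 and 78.6 CPM in aged ECs, above all adult values, and Gbp5 at 24.3 and 24.9 CPM, below all of them. How often other genes in aged ECs were so placed was not tested. For Gbp7 the aged values of 143 and 149 CPM lay within the adult range.

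Microglia, the resident macrophages of the brain parenchyma, held little of most of these transcripts in adults and showed the largest median rise of the 5 cell types in EAE. All 10 genes were called higher, where 13.5% of all genes tested in microglia were. The median log2 change was 3.03, against -0.00 over all genes tested in microglia. Most adult microglia fell in clusters 1, 22 and 4, and most EAE microglia in cluster 4.

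Iigp1 was at 2.30, 1.62 and 2.81 CPM in adult microglia, from 3, 1 and 2 UMIs, and at 134 and 156 CPM in EAE (log2 change 6.17 ± 0.41, adjusted p = 1.7e-07). For Gbp2 the values were 10.8, 11.3 and 11.2 CPM in adults against 295 and 302 CPM in EAE (log2 change 4.96 ± 0.19, adjusted p = 3.4e-10), which brought microglia to the level of EAE ECs. Gbp4 was at 4.61, 1.62 and 1.40 CPM against 71.6 and 71.8 CPM (log2 change 4.74 ± 0.41, adjusted p = 1.3e-06), and 6 of its 8 adult UMIs came from Adult 1. In all 3 genes a transcript that was barely counted in adult microglia became a regular one in EAE. Gbp6 had no UMI in adult, aged or juvenile microglia and 50 UMIs in EAE (4.57 and 5.95 CPM), at least 4.63-fold higher than the 3 UMIs that a count of 0 over the adult group allows. Its call was lost without EAE 2, and its reads are shared with Gbp10.

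Gbp7, Irgm1, Igtp and Irf1 started from higher levels. Gbp7 was at 62.2, 32.4 and 50.6 CPM in adult microglia and 259 and 246 CPM in EAE (log2 change 2.48 ± 0.19, adjusted p = 3.4e-07). Irgm1 went from 26.9, 29.2 and 22.5 CPM to 177 and 189.9 CPM (log2 change 3.01 ± 0.20, adjusted p = 9.3e-08). Igtp went from 39.2, 43.7 and 28.1 CPM to 144 and 150.3 CPM (log2 change 2.19 ± 0.22, adjusted p = 4.8e-06). Gbp3 and Gbp5 also rose, with log2 changes of 2.42 ± 0.25 and 3.04 ± 0.38. Irf1, the factor upstream, changed least: it was at 112, 87.5 and 88.5 CPM in adults and 239 and 216 CPM in EAE (log2 change 1.39 ± 0.14, adjusted p = 4e-06). Its groups did not overlap, but how often other genes in microglia were so placed was not tested.

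EC marker genes were not higher in EAE microglia. The EC marker genes summed to 4.27 to 5.49% of their EC level in adult microglia and 1.95 to 2.26% in EAE microglia, while Gbp2 and Irgm1 in EAE microglia were at 94.8 to 98.8% and 71.3 to 74.6% of their EC level. Among microglia without a UMI of an EC marker, all 9 genes that could be tested were called higher, where 7.0% of all genes tested in these cells were, Gbp2 with a log2 change of 4.70 and Iigp1 with 5.97. Marker genes of infiltrating macrophages were higher in EAE microglia, at 186 to 219 CPM against 38.9 to 50.6 CPM in adults, or 3.56 to 3.94% of their level in macrophages. The part of macrophage RNA in the microglial values was not tested.

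Relative to adults, juvenile microglia were lower in Gbp2 (2.34 to 4.40 CPM, log2 difference -1.61, adjusted p = 0.00083) and Irf1 (40.9 to 46.2 CPM, -1.25, adjusted p = 7.7e-06) and higher in Gbp7 (70.8 to 97.5 CPM, 0.61, adjusted p = 0.022), where 12.7% of all genes tested in microglia were called lower and 12.2% higher. Without the cells that held an EC marker UMI (73.8 to 81.8% of adult and 34.7 to 49.7% of juvenile microglia) Irf1 was still called, where 4.07% of genes were called lower and 5.52% higher, and Gbp2 (-1.57, adjusted p = 0.21) and Gbp7 (0.51, adjusted p = 0.29) were not. In aged microglia 0 of 10 genes were called with edgeR or DESeq2, where 2.04% of all genes were called. Gbp2 alone had an unadjusted p under 0.05, at 17.3 and 20.2 CPM in the aged libraries.

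In PVMs, the macrophages of the perivascular space, Gbp6 did not pass the filter, and 8 of the other 9 genes were called higher in EAE, where 10.7% of all genes tested in PVMs were. The 9 tested had a median log2 change of 2.04, against -0.02 over all genes tested in PVMs. Gbp2 went from 21.1, 11.3 and 31.5 CPM in adults to 199.9 and 211 CPM (log2 change 3.41 ± 0.24, adjusted p = 3.8e-10) and Gbp4 from 2.22, 6.44 and 4.73 CPM to 82.8 and 76.3 CPM (4.36 ± 0.38, adjusted p = 7.8e-09). Iigp1 was uneven among adults, at 21.1, 14.5 and 66.2 CPM, and reached 249 and 396 CPM (log2 change 3.48 ± 0.29, adjusted p = 3.7e-07). Irf1 was at 54.4, 111 and 143 CPM in adults and 164 and 184 CPM in EAE, which did not pass the test (log2 change 1.05 ± 0.33, adjusted p = 0.057) but did without Adult 3 (1.27, adjusted p = 0.0052). The call of Gbp5 (log2 change 2.04 ± 0.57) was lost without EAE 1 (2.23) or EAE 2 (1.84). Among PVMs without a UMI of an EC marker 5 genes were called (Gbp2, Gbp7, Igtp, Irgm1 and Iigp1), where 5.15% of all genes tested in these cells were called higher, and Gbp4 had a log2 change of 2.62 with an adjusted p of 0.12. In juvenile PVMs, Gbp2, Gbp3, Irgm1 and Iigp1 were lower than in adults, where 6.02% of all genes tested in PVMs were called lower. The cells that held an EC marker UMI were 86.8 to 90.5% of adult and 36.8 to 50% of juvenile PVMs, and without them the log2 differences were -0.61 for Gbp2, -1.15 for Gbp3, -0.35 for Irgm1 and -0.99 for Iigp1, none of them called, with few adult cells left and 2.17% of all genes tested called lower. In aged PVMs edgeR called none of the 9, where 1.94% of genes were called, although DESeq2 called 1 and Igtp and Iigp1 had an unadjusted p under 0.05.

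Mural cells, the pericytes and smooth muscle cells that wrap the vessels, were few (101 to 219 per adult library, 127 and 136 per EAE library). Gbp5 and Gbp6 did not pass the filter, and 6 of the 8 genes tested were called higher in EAE, where 2.81% of all genes tested in mural cells were. Their median log2 change was 2.24, against -0.01 over all genes tested in mural cells. Over all genes, the number called in either direction ranged from 21 to 510 across the alternative settings, against 271 in the main test. Iigp1 went from 8.69, 9.40 and 9.23 CPM to 83.2 and 135 CPM (log2 change 3.55 ± 0.48, adjusted p = 0.00053). Gbp2 went from 17.4, 9.40 and 36.9 CPM to 125 and 169 CPM (log2 change 2.83 ± 0.39, adjusted p = 0.00053). Neither gene overlapped between the groups, but how often other genes in mural cells were so placed was not tested. For Gbp4 the adults held 3 UMIs in all and the EAE libraries 32, a ratio of 18.1 with an exact 95% interval of 5.67 to 92.4 that covers counting error only. Irgm1 (9.23 to 30.4 CPM against 125 and 100.2 CPM), Gbp7 (23.5 to 55.4 against 94.6 and 131 CPM) and Igtp (9.23 to 37.6 against 87.0 and 53.9 CPM) also rose, with log2 changes of 2.38 ± 0.44, 1.5 ± 0.30 and 2.04 ± 0.53. Irf1 did not separate the groups, at 49.98, 103 and 175 CPM in adults and 113 and 139 CPM in EAE (log2 change 0.41 ± 0.49, adjusted p = 0.73). With cells named by marker score, or with near-identical libraries summed, only Gbp2 and Iigp1 were called. Between 3 and 6 genes stayed called when 1 library was left out: Gbp4 was lost without Adult 1, EAE 1 or EAE 2 (log2 changes of 3.63 to 4.24), Igtp without Adult 1, Adult 3, EAE 1 or EAE 2 (1.58 to 2.36), Gbp7 without Adult 1 or EAE 2 (1.49 and 1.28), and Irgm1 without EAE 1 (2.20).

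Endothelial RNA moved with these values. EC marker genes summed to 1310 to 1600 CPM in adult mural cells, 8.44 to 9.89% of their EC level, and to 2890 to 3300 CPM in EAE mural cells, 21.0 to 24.1%. Gbp4 in EAE mural cells was at 18.7 and 23.3% of its EC level, at or under the share of the EC markers. Igtp was above that range in EAE 1 (34.8%) and below it in EAE 2 (20.6%). Gbp2 (41.9 and 53.2%), Gbp3 (24.5 and 30.8%), Irgm1 (50.3 and 39.4%), Gbp7 (45.9 and 63.3%) and Iigp1 (28.2 and 48.6%) were above it in both libraries. The part of endothelial RNA in the mural changes was not tested beyond this: among mural cells without a UMI of an EC marker, no member passed the filter. Microglial marker genes also summed to 335 to 620 CPM in EAE mural cells, against 79.9 to 530 CPM in adults.

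**Figure D3:**
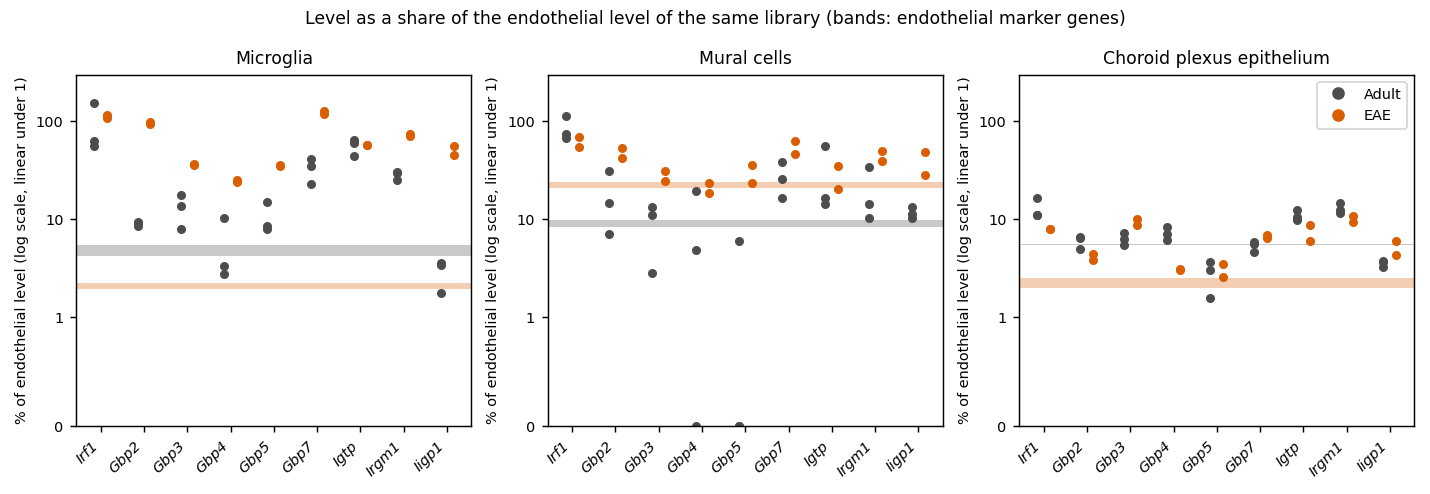
Level of each gene in microglia, mural cells and CP cells as a percentage of its level in ECs of the same library (log axis), 1 point per adult or EAE library, with bands for the summed EC marker genes. Gbp4 in EAE mural cells lies at the band, between 18.7 and 23.3%, whereas Gbp2 in EAE microglia lies far above it.

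In juvenile mural cells Gbp7 and Igtp were lower than in adults (log2 differences -0.99 and -1.92), where 13.6% of all genes tested in mural cells were called lower, and Iigp1 was higher (1.48), where 12.4% were called higher. Iigp1 was at 19.5 to 33.3 CPM over the 4 juvenile libraries against at most 9.40 CPM in adults, the reverse of its pattern in ECs. DESeq2 called none of these 3, and with edgeR 1 call was left without Adult 2, Juvenile 1 or Juvenile 2. In aged mural cells 0 of 8 genes were called with edgeR or DESeq2, with none at an unadjusted p under 0.05, where 0.0316% of genes were called.

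CP cells, the epithelium that secretes cerebrospinal fluid, held the lowest summed level of the 10 genes among the 5 types (a mean of 66.5 CPM in adults and 137 CPM in EAE). In EAE 6 of the 9 genes tested (all but Gbp6) were called higher, where 17.2% of all genes tested in CP cells were. The median log2 change was 0.98, against -0.01 over all genes tested in CP cells. Over all genes, the number called in either direction ranged from 312 to 5013 across the alternative settings, against 4403 in the main test. Iigp1 went from 2.44, 2.99 and 3.01 CPM to 12.8 and 16.8 CPM (log2 change 2.34 ± 0.30, adjusted p = 8.7e-06) and Igtp from 8.14, 6.58 and 6.78 CPM to 21.7 and 15.9 CPM (1.25 ± 0.23, adjusted p = 0.00031). Gbp4 went from 3.66, 2.99 and 3.58 CPM to 8.87 and 9.09 CPM (log2 change 1.27 ± 0.31, adjusted p = 0.0039) and Irgm1 from 12.9, 11.4 and 11.1 CPM to 26.6 and 24.1 CPM (0.98 ± 0.21, adjusted p = 0.0011). None of these 4 genes overlapped between the groups, but how often other genes in CP cells were so placed was not tested. Gbp3 and Gbp2 rose as well (log2 changes 1.16 ± 0.34 and 0.76 ± 0.26), and both calls, with that of Gbp4, were lost with near-identical libraries summed, which left 3 genes called. Those of Gbp3 and Gbp2 were also lost without EAE 1 (1.07 and 0.71) or EAE 2 (1.26 and 0.82), that of Gbp2 also without Adult 1 (0.48). Irf1 stayed at 12.1, 15.3 and 17.3 CPM in adults and 16.6 and 16.1 CPM in EAE (log2 change 0.10 ± 0.20, adjusted p = 0.74).

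EC marker genes were at 5.42 to 5.61% of their EC level in adult CP cells and lower in EAE, at 2.01 to 2.55%. Against these, Gbp4 in EAE CP cells was at 3.13 and 3.06% of its EC level, Gbp2 at 4.43 and 3.85%, Iigp1 at 4.35 and 6.06%, and Irgm1 at 10.7 and 9.49%. In adult CP cells Gbp2 (4.95 to 6.65%) and Gbp7 (4.67 to 5.84%) were near the share of the EC markers, while Irgm1 (11.5 to 14.7%) was above it. Markers of blood-borne cells were higher in EAE CP cells. Macrophage markers went from 37.7 to 47.8 CPM in adults to 75.2 to 97.5 CPM in EAE. Neutrophil markers went from 49.3 to 66.2 CPM to 171 to 186 CPM, and T and NK markers from 3.19 to 14.7 CPM to 15.7 to 22.5 CPM. The part of RNA from blood-borne cells in the CP values was not tested. EAE CP cells were also deeper (median 10112 and 11604 UMIs per cell) than adult ones (3823 to 5796.5), and most lay in clusters 15 and 2, whereas most adult CP cells lay in cluster 2. Whether depth or cluster makeup takes part in the change was not tested.

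Juvenile CP cells were lower than adult ones in all 9 genes tested, where 29.5% of all genes tested in CP cells were called lower. Iigp1 had 1 UMI in the 4 juvenile libraries and 55 in the adults, a ratio of 48.8 (exact 95% interval 8.4 to 1960), and Gbp2 was at 0.472 to 0.93 CPM (log2 difference -3.54 ± 0.35, adjusted p = 4.3e-08). EC markers in CP cells summed to 283 to 365 CPM in juveniles and 769 to 886 CPM in adults. Aged CP cells had 0 of 9 genes called with edgeR or DESeq2 and none at an unadjusted p under 0.05, where 1.61% of genes were called.

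**Figure D4:**
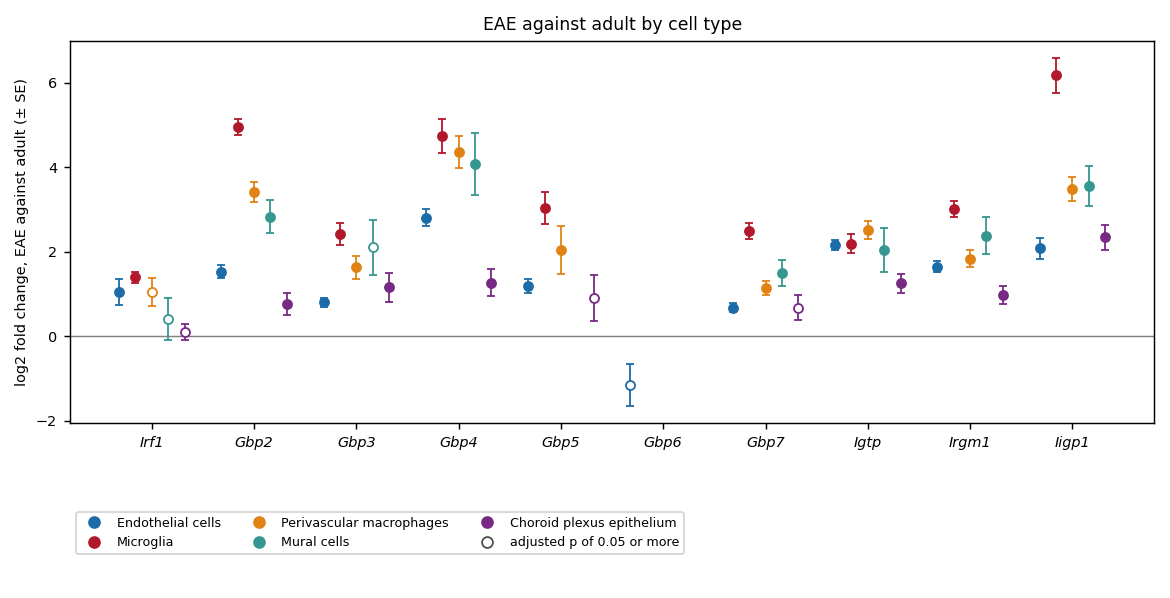
Log2 change from adult to EAE of each gene in ECs, microglia, mural cells, CP cells and PVMs, with bars of 1 SE, filled where the adjusted p is under 0.05 and open otherwise. Gbp6 in microglia is left out because no adult UMI was counted, and microglia lie highest for Iigp1 (6.17), Gbp2 (4.96) and Gbp4 (4.74).

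Whether the change in EAE differed between cell types was tested with an interaction term in a fit over both cell types with the library as a block. The rise on the log2 scale, which does not rank gains in CPM, was smaller in ECs than in microglia for 8 of the 10 genes, where 5.27% of all genes tested were called lower in this contrast. The difference was -4.11 ± 0.35 on the log2 scale for Iigp1 (adjusted p = 7e-05), -3.46 ± 0.20 for Gbp2 (6.5e-06), -1.84 ± 0.18 for Gbp7 (0.00014) and -1.39 ± 0.17 for Irgm1 (0.0007), with Gbp3, Gbp4 and Gbp5 between -1.97 and -1.64. Gbp6 was called too, but rests on 0 adult UMIs in microglia, and Iigp1 and Gbp4 rest on few. With the microglia that held an EC marker UMI left out, 5 of the 8 calls held, where 5.47% of all genes tested were called lower, and the differences of Gbp4 (-0.77), Gbp5 (-2.29) and Gbp6 did not pass. For Igtp (-0.06 ± 0.17, adjusted p = 0.87) and Irf1 (-0.31 ± 0.40, adjusted p = 0.7) no difference in change was called.

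Against mural cells edgeR and DESeq2 called no difference in change for the 9 genes tested, where 0.984% of all genes tested were called, and 5 of the 9 (Gbp2, Gbp3, Gbp5, Gbp7 and Iigp1) had an unadjusted p under 0.05, each with the smaller rise in ECs. The difference for Iigp1 was -1.49 ± 0.49 (adjusted p = 0.2) and that for Igtp 0.07 ± 0.48 (adjusted p = 0.98). Against CP cells the rise was larger in ECs for 5 of the 10 genes, where 7.52% of all genes tested were called higher: Gbp4 (1.46 ± 0.22, adjusted p = 0.0012), Irf1 (0.93 ± 0.20, adjusted p = 0.01), Igtp (0.82), Gbp2 (0.69) and Irgm1 (0.59). DESeq2, and edgeR with cells named by marker score, called Gbp4 and Irf1 alone, and without the library block only Gbp4 was called. Without EAE 1 or without EAE 2 the call of Gbp4 alone was kept, and that of Gbp2 was also lost without Adult 2 or Adult 3. With CP cells that held an EC marker UMI left out, none of the 5 passed, where 0.908% of all genes tested were called higher, and the difference was -0.98 for Igtp and -0.18 for Irf1 (edgeR, adjusted p = 0.86 and 0.99); these cells were 81.8 to 93.5% of the adult and EAE CP cells.

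The share of cells with at least 1 UMI of any of the 10 genes, after every cell was thinned to 1500 UMIs and shallower cells were left out, followed the levels. In ECs it was 62.6 to 68.6% in the adult libraries and 83.6 to 83.7% in EAE (without thinning 83.9 to 86.6% and 89.2 to 89.6%). In microglia it was 28.9 to 30.6% against 77.0 to 79.4%, a difference in means of 48.4 percentage points. PVMs went from 40.9 to 50.9% in adults to 74.8 to 78.1% in EAE, mural cells from 17.6 to 33.9% to 48.3 to 54.8% (with cells named by marker score 14.8 to 36.5% and 31.6 to 46.3%, which overlap), and CP cells from 8.73 to 10.5% to 15.5 to 18.2%. At this depth 36.6 and 35.8% of EAE ECs held at least 3 of the 10 genes, against 10.86 to 12.03% of adult ECs. The shares were 23.1 and 24.4% against 0 to 0.556% in microglia, 28.97 and 32.42% against 1.705 to 3.03% in PVMs, and 13.3 and 14.5% against 0% in mural cells, where 1.37 to 1.98% of adult cells held at least 3 of the genes without thinning. In CP cells the thinned shares were near 0 in both groups (0 and 0.214% in EAE, 0 to 0.253% in adults), while without thinning they were 16.6 and 15.95% against 1.14 to 2.82%, in EAE cells that were deeper. As a gauge of free RNA, Flt1, an endothelial receptor, was counted at the same depth in 11.1 to 14.3% of adult microglia and 6.82 to 9.44% of EAE microglia. This share was also lower in EAE in CP cells (12.15 to 15.5% against 7.26 and 6.42%), overlapped in PVMs (10.8 to 17.58% against 12.15 and 8.22%) and was higher in EAE in mural cells (15 to 27.1% against 36.7 and 35.5%). The 10 genes summed to 64.2 to 69.8 CPM in adult CP cells and 798 to 928 CPM in adult ECs. The level of Irgm1 in adult CP cells stood above the share of the EC markers. In each adult CP library the share of cells with any of the 10 genes (8.73 to 10.5%) was below that of Flt1. Such shares are not scaled to the level of each gene in ECs, so they cannot tell expression from free RNA. The part of free RNA in these shares was not tested. Exact binomial 95% intervals of these shares cover counting error only.

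**Figure D5:**
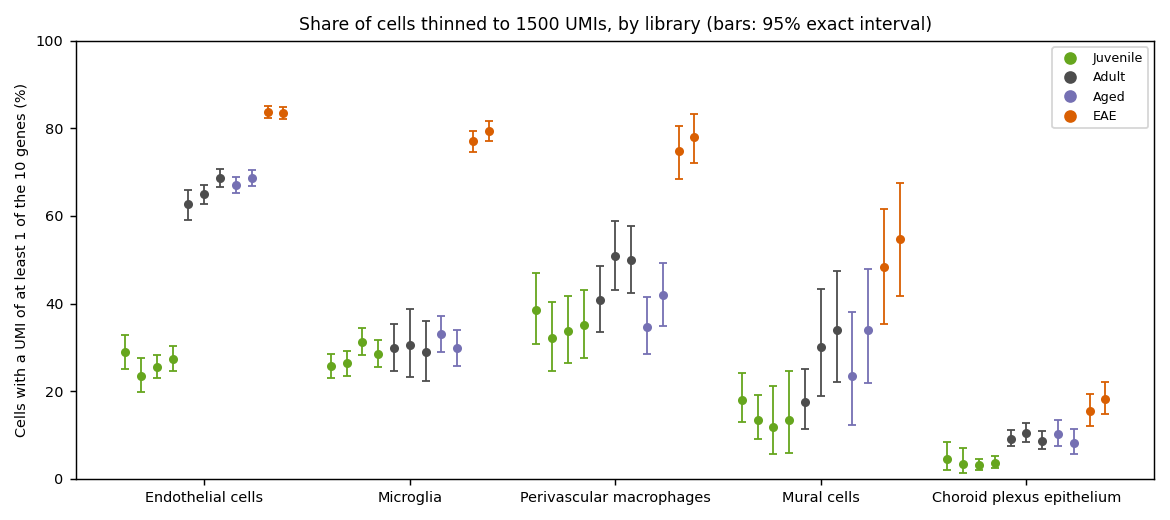
Percentage of cells with at least 1 UMI of any of the 10 genes after thinning to 1500 UMIs per cell, for each library of ECs, microglia, mural cells, CP cells and PVMs, with exact binomial 95% intervals. Microglia go from 28.9 to 30.6% in adults to 77.0 to 79.4% in EAE, the widest gap of the 5 types.

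Over all cell types with at least 10 cells, the 10 genes together were highest in ECs in both conditions, with a mean of 858 CPM in adults and 2120 CPM in EAE. In adults PVMs followed at 427 CPM and T and NK cells at 319 CPM. In EAE the next were PVMs (1570 CPM), microglia (1450), astrocytes (1380, from 72 cells, with 786 and 1980 CPM in the 2 libraries), ependymal cells (1320), infiltrating macrophages (1150) and neutrophils (1130). Not every gene peaked in ECs: Gbp2 in EAE was highest in infiltrating macrophages, at 504 to 555 CPM against 298 to 318 CPM in ECs, although their range overlapped that of ependymal cells (300 to 517 CPM). Igtp was highest in astrocytes (657 and 335 CPM from 65 and 32 UMIs, against 249.9 and 262 CPM in ECs) and Gbp7 in PVMs (284 and 299 CPM), followed by microglia (259 and 246 CPM) and ECs (206 and 207 CPM). Iigp1 in PVMs and Irf1 in fibroblasts had the highest means, but their libraries overlapped those of the next type (ECs and ependymal cells). Gbp6 was led by astrocytes on 2 UMIs per library. Gbp3, Gbp4, Gbp5 and Irgm1 had their highest mean in ECs, that of Irgm1 with overlap with astrocytes. For Gbp3 in EAE the order was clear at the top, with ECs at 247 to 250 CPM and every other type at 111 CPM or less.

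Ifng itself was counted mainly in T and NK cells, at 295 and 274 CPM in the EAE libraries from 1065 and 965 UMIs, and at 365, 86.5 and 176 CPM in the adult libraries from 70, 17 and 24 UMIs. These T and NK cells numbered 1785 in EAE and 139 in adults. Neither receptor gene was called in ECs: Ifngr1 had a log2 change of -0.03 ± 0.10 (adjusted p = 0.84) and Ifngr2 one of -0.20 ± 0.12 (0.26).

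Lists of related genes, chosen with earlier results of these data known, are given as counts, beside the share of all genes tested that were called higher in EAE: 15.8% in ECs, 13.5% in microglia, 10.7% in PVMs, 2.81% in mural cells and 17.2% in CP cells. Of the other interferon-inducible GTPases 8 of 10 tested were called higher in EAE ECs (among them Irgm2, a further regulator, with a log2 change of 1.36 ± 0.10), 9 of 10 in microglia, 7 of 8 in PVMs and 3 of 6 in CP cells. In mural cells only 1 of this list passed the filter and it was not called. Of the class I and immunoproteasome genes, which serve antigen presentation, 13 of 14 were called higher in ECs, 13 of 14 in microglia, 14 of 14 in PVMs, 8 of 13 in mural cells and 11 of 14 in CP cells. The class II list was called higher in ECs for 6 of 6 genes, and the part of macrophage RNA in these values was not tested. Of the type I interferon genes 4 of 9 tested were called higher in ECs and 10 of 10 in microglia. Nlrc5, the transactivator of class I genes, rose in ECs (log2 change 2.72 ± 0.26) and microglia (4.69 ± 0.71), whereas Socs1, a feedback inhibitor of the pathway, rose in microglia (1.19 ± 0.33, adjusted p = 0.017) and had a log2 change of -0.10 ± 0.36 in ECs (adjusted p = 0.87).

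Over 143 sums of cells by library and cell type (15 cell types, which share libraries), each gene's log2 level was set against the mean of the other 9. Pearson's r was highest for Igtp and Iigp1 (0.80 each) and lowest for Gbp6 (0.47), with Irf1 at 0.68. Among 6989 other genes compared with the mean of the 10, the most alike included Tsc22d3 and Ifi47 (r = 0.76 each) and H2-T22 and H2-K1 (0.75 each).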

How the data were processed

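Cells of myelin-depleted mouse cortex were profiled in 11 libraries by droplet single-cell RNA-seq. Per the labels, the deposited values are UMI counts per gene and cell barcode, which the authors made with STAR 2.5.3a, featureCounts 1.6.1 and UMI-tools 0.5.3, without normalization (genome mm10; the study's methods name other versions). UMIs remove PCR duplicates, but free RNA of lysed cells enters every droplet. The members and lists were chosen with earlier results of these data known.

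Cells with 500 to 6000 genes and at most 25% mitochondrial counts were kept, as in the study. Seurat 5.3.0 clustered them on 1968 variable genes (12 principal components, resolution 0.5), and clusters were named from marker genes. Scrublet (in Scanpy 1.11.5) called 818 cells (1.62%) doublets, which were kept in the main analysis. Libraries shared 0.466 to 1.66% of barcodes. Counts were summed per library and cell type (at least 10 cells), Adult 2 with Adult 3, and tested with edgeR 4.0.16 (TMM scaling, filterByExpr, robust quasi-likelihood test, all 4 conditions in 1 fit), with Benjamini-Hochberg adjustment over all genes tested and a threshold of 0.05. Differences in change between cell types were tested as an interaction with the library as a block. EC subclusters came from adult and EAE ECs integrated by condition.

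In simulated data for EAE against adults, changes of 2 on the log2 scale were recovered for 95.5% of genes in ECs (13708 genes), 89% in microglia (11301), 78.5% in mural cells (6337), 94% in CP cells (13198) and 91.5% in PVMs (8009). The 10 genes were named in each comparison, beside Ifng, Ifngr1, Ifngr2, Socs1, Irgm2, the leading called genes of a list and the genes of most similar pattern; 1 further gene is not reported here. Alternatives were DESeq2 1.42.0, other filters, groupings, cell names and fits, each library left out, a replicate block and, chosen after seeing the data, cells without an EC marker UMI. Same-numbered libraries did not deviate together (Pearson's r -0.177 to 0.092), so numbers were not used as pairs. Gene positions came from GENCODE M21 and promoters from RefSeq.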

Additional observations from a re-analysis of the deposited data

Results flagged for a closer look

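Dixon's criterion is met by chance in about 1 in 20 groups of independent values without ties. That rate does not hold for libraries that form pairs, or for counts tied at 0. Among 47 groups of juvenile libraries, 10 had a library apart from the other 3 by this criterion. In ECs these were Gbp2 in Juvenile 2 (18.0 CPM, others 27.5 to 28.3), Irgm1 in Juvenile 2 (16.6, others 22.6 to 23.6) and Gbp7 in Juvenile 4 (51.4, others 42.5 to 43.3). In microglia Gbp2 was low in Juvenile 1 (2.34 CPM, others 4.06 to 4.4) and Gbp3 in Juvenile 2 (16.2, others 22.8 to 23.8). In CP cells Gbp2 was high in Juvenile 4 (0.93 CPM, others 0.472 to 0.549). The remaining 4 rest on a library with a value where the others had 0: Gbp4 (0.977 CPM, Juvenile 2) and Gbp5 (0.951, Juvenile 1) in mural cells, Iigp1 in CP cells (0.155, Juvenile 4) and Gbp4 in PVMs (1.81, Juvenile 2).

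The EAE change differed between cell types by a test of the difference itself. It was smaller in ECs than in microglia for Gbp2 (-3.46 on the log2 scale), Gbp3 (-1.64), Gbp4 (-1.97), Gbp5 (-1.88), Gbp7 (-1.84), Irgm1 (-1.39), Iigp1 (-4.11) and Gbp6 (-9.53, a fitted value that rests on 0 adult UMIs in microglia and is no measure of size). It was larger in ECs than in CP cells for Gbp2 (0.69), Gbp4 (1.46), Igtp (0.82), Irf1 (0.93) and Irgm1 (0.59). Against CP cells DESeq2 called Gbp4 and Irf1 alone. With cells that held an EC marker UMI left out, none of the differences from CP cells passed. Against microglia those of Gbp4, Gbp5 and Gbp6 did not pass either.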

How the results depend on the processing

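Counts of called members in ECs and microglia in EAE (6 to 9 and 9 to 10 over all alternatives) and in juvenile ECs (9 to 10) and CP cells (8 to 9) stayed within 1.5 times the reported ones. Of 268 recomputed counts 234 did so, and single members kept direction and side of the threshold in 1164 of 1305 cases. The rest follows. Gbp5 and Gbp6 in mural cells, and Gbp6 in CP cells and PVMs, did not pass the filter on low counts. Unless stated, the cause was not tested.

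With near-identical libraries summed (1 EAE, 1 aged, 2 adult and 2 juvenile samples, so fewer samples) the count fell to 2 for mural cells in EAE, 3 for CP cells in EAE, 0 for juvenile mural cells and 2 for juvenile PVMs. With cells named by marker score it was 2 for mural cells in EAE, 1 for juvenile mural cells and 2 for ECs against CP, the share of mural cells with a member differed by 12.1 points, and Irf1 in mural cells was -0.13. DESeq2 gave 1 for aged PVMs, 0 for juvenile mural cells and 2 for ECs against CP. No filter on low counts gave 2 for aged ECs and 1 for aged PVMs, each library as a replicate 1 for aged ECs, leaving out doublets 1 for aged PVMs and 1 for juvenile mural cells, and no library block 1 for ECs against CP. Without cells with an EC marker UMI the count was 5 for PVMs in EAE, 1 for juvenile microglia, 0 for juvenile PVMs, 5 for ECs against microglia and 0 for ECs against CP (Igtp -0.98, Irf1 -0.18), from fewer cells, and no member of mural or CP cells could be tested for EAE, age or juveniles.

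Leaving out 1 library gave 3 to 6 for mural cells in EAE, 0 to 1 for aged PVMs (1 without Adult 1 or Adult 3), 1 to 3 for juvenile mural cells (1 without Adult 2, Juvenile 1 or Juvenile 2, the last a call in the other direction), 0 to 1 for ECs against mural cells (1 without Adult 3) and 1 to 5 for ECs against CP. Irf1 in EAE ranged from -0.16 to 0.84 in mural cells and from -0.15 to 0.18 in CP cells, negative without Adult 1.

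Replicate numbers are only names here. With a replicate block the count was 1 for aged ECs and 1 for aged PVMs, and it stayed within 1.5 times elsewhere. Over all genes, the counts called in EAE ranged from 641 to 4563 in ECs (3834 reported), 840 to 3477 in microglia (2896), 21 to 510 in mural cells (271), 312 to 5013 in CP cells (4403) and 399 to 1746 in PVMs (1475). Juvenile counts ranged from 2751 to 6744 in ECs (5976), 1002 to 3337 in microglia (2814) and 169 to 998 in PVMs (813). Those for mural and CP cells were 546 to 2054 (1649) and 1209 to 8029 (7541). Aged counts ranged from 2 to 1734 in ECs (757), 3 to 637 in microglia (231) and 21 to 407 in PVMs (155). Those for mural and CP cells were 0 to 69 (2) and 6 to 600 (212). With all libraries kept, the change in ECs against CP cells gave 332 to 3044 (1992).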
